A study of Rattus norvegicus with 8 samples.

Results

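The 4 surgical control arrays of a rat medial thalamus series, out of 8 arrays in all, were described here as the baseline of this tissue. They were chosen by their sample titles, and no expression value entered the choice. Each array held total RNA from the medial thalamus of a male Sprague-Dawley rat that was conscious during its sessions. Control rats had the surgery but no tracheal occlusions (brief blocks of the airway), with control sessions on each of 10 days. The other group of 4 rats received occlusion sessions over the same 10 days. It is used below only for its own spread and in a slide test on all 8 arrays. All rats were killed by an overdose of anaesthetic within 10 min of the last session. The labels do not give the ages, the operation or which thalamic nuclei a dissection held, and the design text gives 4 animals per group, so arrays were taken as separate animals.

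The medial thalamus is the midline side of the thalamus. Its relay neurons release glutamate onto cortex, striatum and limbic areas, carry the vesicular glutamate transporter Slc17a6, and switch between tonic firing and bursts that rest on T-type calcium channels and HCN pacemaker channels. In rodents nearly all GABA input to them comes from outside, above all from the reticular thalamic nucleus, a shell of GABA neurons around the thalamus. Close neighbours of the medial thalamus are the habenula above it, the hypothalamus below it, the choroid plexus of the third ventricle, and further back the pineal gland.

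Each array carried 45018 spots, of which 43379 were not controls and belonged to 41012 probes of 60 bases. The scanner software flagged 65.0% to 67.6% of spots as well above background and 1.15% to 1.49% as saturated. The level used throughout is the log2 processed signal minus the 75th percentile of its own array, so 0 is the 75th percentile and each step of 1 is a doubling of signal. The percentile lay at a signal of 1696 to 1885, the scanner's saturation value at a level of 5.12 to 5.27, and the lowest signal well above background at -5.60 to -5.26. The number of arrays, 4, limits the precision of every mean and SD. Over genes well above background on all 4 arrays and never saturated, the arrays correlated with r from 0.969 to 0.988 across genes, which are not independent replicates. The lowest values were those of control 3 with controls 1 and 4 (both 0.969), while with control 2 it had 0.977. Controls 1 and 4 were on slide 1 and controls 2 and 3 on slide 2, each slide scanned at its own time.

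A gene here is 1 gene name of the files, represented by its brightest probe. Of 35581 genes, 20860 (58.6%) were well above background on all 4 control arrays and 10811 (30.4%) on none. On 1, 2 or 3 arrays only there were 1722, 1232 and 956. Among the 15470 genes with a current symbol, 71.1% were well above background on all 4, 19.2% on none, and 35.0% had a mean level above 0. A level is the brightness of a probe, not an amount of RNA. For 3474 genes with several probes, the brightest and the dimmest probe lay a median of 2.34 apart, and 5.86 at the 90th percentile. Some genes called bright or clear below had far dimmer other probes. Examples are Penk at -5.63, Chrna7 at -5.08 and -6.98, Oprl1 at -4.08 and Cacna1b at -4.29. Levels of different genes are therefore given side by side and not compared as amounts, and "not well above background" says only that this probe gave no clear signal.

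**Figure D1:**
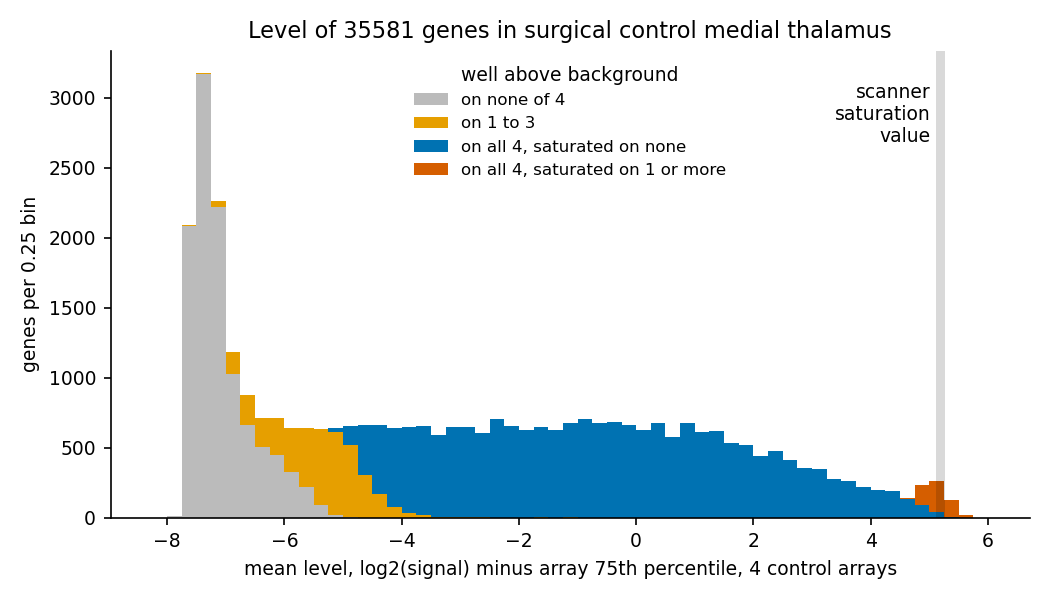
Histogram of the mean level over the 4 control arrays (x axis, log2 signal minus the 75th percentile of each array) for 35581 genes, counted per bin of 0.25 (y axis) and coloured by how many arrays were well above background and whether any was saturated. Genes seen on none of the arrays pile up below -7, and genes flagged as saturated crowd around the scanner's saturation value (grey band, 5.12 to 5.27), which processed signals can exceed.

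The 30 genes with the highest mean level (5.48 to 5.66) all carried the saturation flag, 26 of them on every control array, so they have no order among themselves. The brightest gene without the flag had a level of 5.41, and 9 of the 30 have no symbol. They included Oaz1, which restrains polyamine synthesis, the trafficking GTPases Arf1 and Arf3, Skp1 of ubiquitin ligases, the actin-binding peptide gene Tmsb4x, the brain creatine kinase gene Ckb, and Hspa5 and Hsp90ab1, which encode chaperones. Genes known for strong expression in glia were also there, namely Clu, Cst3 and Tf, as was Ndn, a neuronal gene. In all, 348 genes (0.978%) were saturated on all 4 arrays. Of genes with a symbol, 2.32% were so on 1 array or more. For ribosomal protein genes it was 49 of 83 (59.0%) and for subunits of the respiratory chain and ATP synthase 33 of 72 (45.8%), 2 lists built from symbol patterns after the data had been seen. Such genes have only a lower bound here, and their spread over arrays is not a measurement.

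Among genes for transmitters, those for glutamate were mostly bright. Slc17a6, the vesicular glutamate transporter of thalamic relay neurons, had levels of 5.03, 4.85, 3.82 and 5.16 on controls 1 to 4, the last one saturated. Control 3 was the lowest of the 4, by over 1 unit. Its probe lies at chr1:101543939-101543998 (rn3). The 2 other vesicular glutamate transporters were dim. Slc17a7, that of cortical neurons, read -3.15, -3.30, -5.51 and -4.01 and was not well above background on control 3. Slc17a8 was well above background on no array. The glutaminase Gls2, which makes glutamate, had a mean of 2.89 ± 0.44 (SD, n = 4). Glul, which turns glutamate to glutamine in astrocytes, read 3.87 ± 0.18 on 3 arrays, since control 2 had an outlier flag. The astrocyte transporter Slc1a3 was saturated on all 4 arrays, while Slc1a2 read 1.27 ± 0.43 by its brighter probe and -3.36 by its other one. In all, 8 of 10 genes of this list were well above background on all 4 arrays (80.0%, against 71.1% of all genes with a symbol).

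Genes for GABA and glycine were all 9 well above background on all 4 arrays, against 71.1% of all genes with a symbol. The GABA neuron genes differed between arrays. Gad1, which makes GABA, read 0.07, 0.29, 2.06 and -0.65 on controls 1 to 4. For Gad2, the second GABA-making enzyme, the values were -0.53, 0.44, 1.92 and -1.20. The vesicular transporter Slc32a1 read 3.12, 3.42, 4.68 and 2.69. Control 3 was the highest and control 4 the lowest of the 4 arrays in each of these 3 genes. By contrast, Abat, which breaks GABA down, read 1.01 ± 0.23, and the glial glycine transporter Slc6a9 -0.44 ± 0.12. In bulk tissue such as this, fewer cells of a type and less RNA per cell cannot be told apart.

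Of 14 genes for monoamines, 8 were well above background on all 4 arrays (57.1%, against 71.1% of all genes with a symbol). The other 6 were so on 1 to 3 of them. The breakdown enzymes were steady, with Maoa at 0.01 ± 0.27 and Maob at 0.18 ± 0.13. Ddc, the decarboxylase of dopamine and serotonin synthesis, was bright on every array, at 2.79, 2.64, 1.44 and 3.26. The vesicular transporter Slc18a1 read -1.66 ± 0.29. Several other enzymes and transporters of the monoamine neurons, whose cell bodies lie outside the thalamus, were dim on some arrays. Th, the first enzyme of catecholamine synthesis, read -0.80, -1.79, -4.23 and 0.48. Dbh, which makes noradrenaline, read -4.61, -7.01, -5.77 and -4.64 and was well above background on controls 1 and 4 alone, the pair of slide 1. Slc6a3, the dopamine transporter, was well above background on control 4 only. The serotonin transporter Slc6a4 read -3.87, -5.35, -5.09 and -4.02. Tph1, the tryptophan hydroxylase of the pineal gland, read 1.5, 0.85, -5.45 and -1.70, and Tph2, that of the raphe neurons, -4.62 ± 0.61. Tph1 was thus high on controls 1 and 2 and not well above background on control 3.

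Of the 5 acetylcholine genes, 3 differed between the arrays with the same 2 arrays on top. Slc18a3, the vesicular acetylcholine transporter, read 2.14, 2.59, 1.03 and -0.90 on controls 1 to 4. For the choline transporter Slc5a7 the values were 1.98, 2.68, 0.40 and -0.70. Chat, which makes acetylcholine and whose gene neighbours Slc18a3 with 0 coding genes between them, was dim at -4.16, -4.27, -5.22 and -5.71. It was the 1 gene of the list not well above background on every array. All 3 were higher on controls 1 and 2 than on controls 3 and 4. The cholinesterases Ache (1.51 ± 0.43) and Bche (-3.15 ± 0.21) did not follow that split.

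Of 29 neuropeptide precursor genes, 27 were well above background on all 4 arrays (93.1%, against 71.1% of all genes with a symbol). Several were bright on every array, among them Sst (3.28 ± 0.97), Penk (2.20 ± 0.76), Nmb (1.88 ± 0.11) and Cck. Cck, a peptide gene of many thalamic relay neurons, read 4.66, 3.60, 2.42 and 5.07, the last one saturated. Nmb varied least of those named, and 12 of the 29 had an SD above 1, against 6.26% of all genes with a symbol. Tac1, the precursor of substance P, read 3.42, 4.30, 1.38 and 2.18 and so was higher on controls 1 and 2. Vip read 2.53, -0.64, -0.02 and 2.63, and Cartpt 2.71, -0.66, -0.83 and 2.94. Both were high on the 2 arrays of slide 1, and the slide's part in this was not tested apart from the animals. On the occlusion arrays, Cartpt spanned -3.49 to 4.13 and Vip 2.24 to 4.15.

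Of the receptor genes, 111 of 157 (70.7%) were well above background on all 4 arrays, near the 71.1% of all genes with a symbol, and 23 on none. Among ionotropic glutamate receptors, 17 of 18 were well above background on all 4 arrays. Grin2c, an NMDA receptor subunit, read 4.49, 4.40, 4.56 and 4.75, with no array apart from the rest. The obligate subunit Grin1 read 2.94 ± 0.21, whereas Grin2a and Grin2b read -2.85 ± 0.42 and -2.91 ± 0.51 by their brightest probes. Of the AMPA receptor subunits, Gria2 read 1.95, 1.60, 3.34 and 2.10, Gria4 0.72 ± 0.33, Gria1 0.54 ± 0.50 and Gria3 -1.25 ± 0.53. Gria2 was highest on control 3, and its other probe showed the same array on top at 2.85. The kainate receptor subunit Grik3 was well above background on control 4 only.

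All 8 metabotropic glutamate receptors were well above background on all 4 arrays, against 71.1% of all genes with a symbol. Grm4, a presynaptic receptor, read 1.70, 1.03, 0.77 and 2.33. It was higher on the 2 arrays of slide 1 than on those of slide 2. The list's median difference between slide 1 and slide 2 was 0.53, the largest among the transmitter, receptor and channel lists. Grm3, known in glia, read 1.84 ± 0.32, and Grm5 -2.78 ± 0.73.

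Of the GABA-A receptor subunits, Gabrb1 was clear on all 4 arrays, at 2.48 ± 0.29. Gabrd, the subunit of receptors outside synapses, read 2.66, 1.5, 1.17 and 3.57, higher on both arrays of slide 1. Gabbr1, which binds GABA in the metabotropic GABA-B receptor, read 3.88 ± 0.27, and its partner Gabbr2 was saturated on 3 arrays and read 4.26 on control 3. Gabra6, known from cerebellar granule cells, was well above background on no array, as were Gabrp, Gabrr2 and Gabrr3. Of the 24 genes, 16 were well above background on all 4 arrays (66.7%) and 4 on none (16.7%). Over all genes with a symbol these shares were 71.1% and 19.2%.

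Of serotonin receptors, Htr7 stood alone above the 75th percentile, at 1.45, 0.94, 1.56 and 1.94. It is a receptor that raises cyclic AMP and is known from midline thalamic nuclei. The other 13 of the list had mean levels below 0, whereas 35.0% of all genes with a symbol lay above 0. Of the 14, 8 were well above background on all 4 arrays (57.1%, against 71.1% of all genes with a symbol). Htr5b read 0.02, 0.70, -2.08 and -2.58, higher on controls 1 and 2. Htr2a and Htr2c read -3.09 ± 0.23 and -2.69 ± 0.31, and Htr4 was well above background on no array.

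Among receptors for dopamine, adrenaline and histamine, Adra1b and Hrh3 were the only 2 of 18 with a mean level above 0. Over all genes with a symbol, 35.0% had such a level. Adra1b, through which noradrenaline excites thalamic neurons, read 2.87, 1.77, 1.16 and 3.59, and the histamine autoreceptor Hrh3 2.01, 1.13, 1.52 and 2.62. Both had their higher values on slide 1. The 5 dopamine receptors had mean levels below 0. Drd1, Drd2 and Drd5 varied little, at -4.86 ± 0.18, -3.36 ± 0.11 and -2.86 ± 0.36. Drd3 read -4.25, -5.18, -5.59 and -4.18, and Drd4 -5.08, -4.41, -7.45 and -5.39, well above background on control 2 only. Adra1a, Adrb3 and Hrh2 were well above background on no array.

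The nicotinic and muscarinic receptors were the list with the fewest receptor genes detected, 7 of 21 on all 4 arrays (33.3%) and 8 on none (38.1%), against 71.1% and 19.2% of all genes with a symbol. Chrm3, a muscarinic receptor coupled to phospholipase C, was bright on every array at 4.07, 3.82, 4.03 and 4.66. Chrna7 and Chrna4, subunits of the common brain nicotinic receptors, read 1.18 ± 0.13 and 0.71 ± 0.72. Chrna3, a subunit of the habenular and ganglionic receptor, read 1.15, 1.94, -5.78 and -1.39. Its gene lies between Chrna5 and Chrnb4 with 0 coding genes between neighbours. Chrnb4 read -1.89, -1.27, -6.40 and -3.80, and Chrna5 -4.01, -2.97, -7.62 and -5.70. All 3 were highest on control 2 and not well above background on control 3. The subunits of muscle, Chrna1, Chrnd and Chrng, were well above background on no array, as were Chrna2, Chrna9, Chrna10, Chrnb1 and Chrm5.

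Purine and cannabinoid receptors were clear for Adora1 (3.08 ± 0.30), which quiets transmitter release, P2rx6 (1.29 ± 0.46), the microglial P2ry12 (1.25 ± 0.13) and Cnr1 (0.35, 0.79, 1.88 and 0.37). P2rx1 and P2rx7 were well above background on no array. Of 36 neuropeptide receptors, 28 were well above background on all 4 arrays (77.8%, against 71.1% of all genes with a symbol). Only 5 had a mean level above 0, against 35.0% of all genes with a symbol. Those 5 were Ntsr2 (3.09 ± 0.48), a neurotensin receptor of astrocytes, the nociceptin receptor Oprl1 (1.22 ± 0.07), Sstr3 (0.97 ± 0.34), the stress receptor Crhr1 (0.48 ± 0.23) and Npy1r (0.09 ± 0.78). Oprm1, the mu opioid receptor, read -5.03, -6.25, -7.44 and -4.52 and was well above background on slide 1 alone. Npy2r, Vipr1, Oxtr, Avpr1b and Ntsr1 were well above background on no array.

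Ion channel genes were clear for 101 of 123 (82.1%) on all 4 arrays, against 71.1% of genes with a symbol. Of the pacemaker channels, Hcn2 read 3.95, 3.99, 3.41 and 3.88, and Pex5l, an auxiliary protein of these channels, 2.90 ± 0.31. Hcn3 and Hcn4 had means below 0, at -0.57 ± 0.26 and -4.08 ± 0.37. The T-type calcium channel of relay neurons, Cacna1g, read -0.01, -0.63, -0.35 and 0.42. Its relatives Cacna1h, at -3.15 ± 0.58, and Cacna1i, at -4.66, -5.71, -6.25 and -4.98, were dim, and Cacna1i was not well above background on either array of slide 2. Of the high-voltage channels, Cacna1b read 3.24 ± 0.25 and the auxiliary subunit Cacna2d1 4.28 ± 0.27. The retinal Cacna1f was well above background on no array.

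Of the sodium channels, Scn2a read 3.08 on control 1 and 3.03 on control 3, with outlier flags on the other 2 arrays. Scn3a and Scn1a read 1.80 ± 0.33 and 0.93 ± 0.51, and the auxiliary subunit Scn3b 4.93 ± 0.13, saturated on control 3. Of the channels known from muscle and sensory neurons, Scn9a was clear on all 4 arrays at -0.98 ± 0.63. Scn4a was well above background on no array and Scn10a on 1. Scn11a read -3.52, -2.93, -0.65 and -5.24, highest on control 3.

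Among voltage-gated potassium channels, Kcna1, a channel of axons, read 3.98 ± 0.16. Kcnq5, a channel of the M-current, read 2.06, 2.62, 3.33 and 1.90, and Kcnd2, of the A-current, 2.36, 2.5, 1.48 and 2.40. Control 3 thus stood highest for Kcnq5 and lowest for Kcnd2 by these probes. The other probe of Kcnq5 read -3.03, -3.60, -3.05 and -3.38, with control 1 on top. Kcnq1, known from heart and inner ear, was well above background on no array. Of the other potassium channels, Kcnj3, a subunit of G-protein-gated channels, read 2.56 ± 0.12, the leak channel Kcnk2 2.57 ± 0.22, and Kcnj12, an inward rectifier, 3.38, 3.20, 2.0 and 3.29. Kcnj1, Kcnj2 and Kcnj15 were well above background on no array. The calcium release channel Itpr1 read 3.44 ± 0.37. Trpc4 read -0.25, -0.17, 2.93 and -0.40, so that control 3 alone lay above 0.

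**Figure D2:**
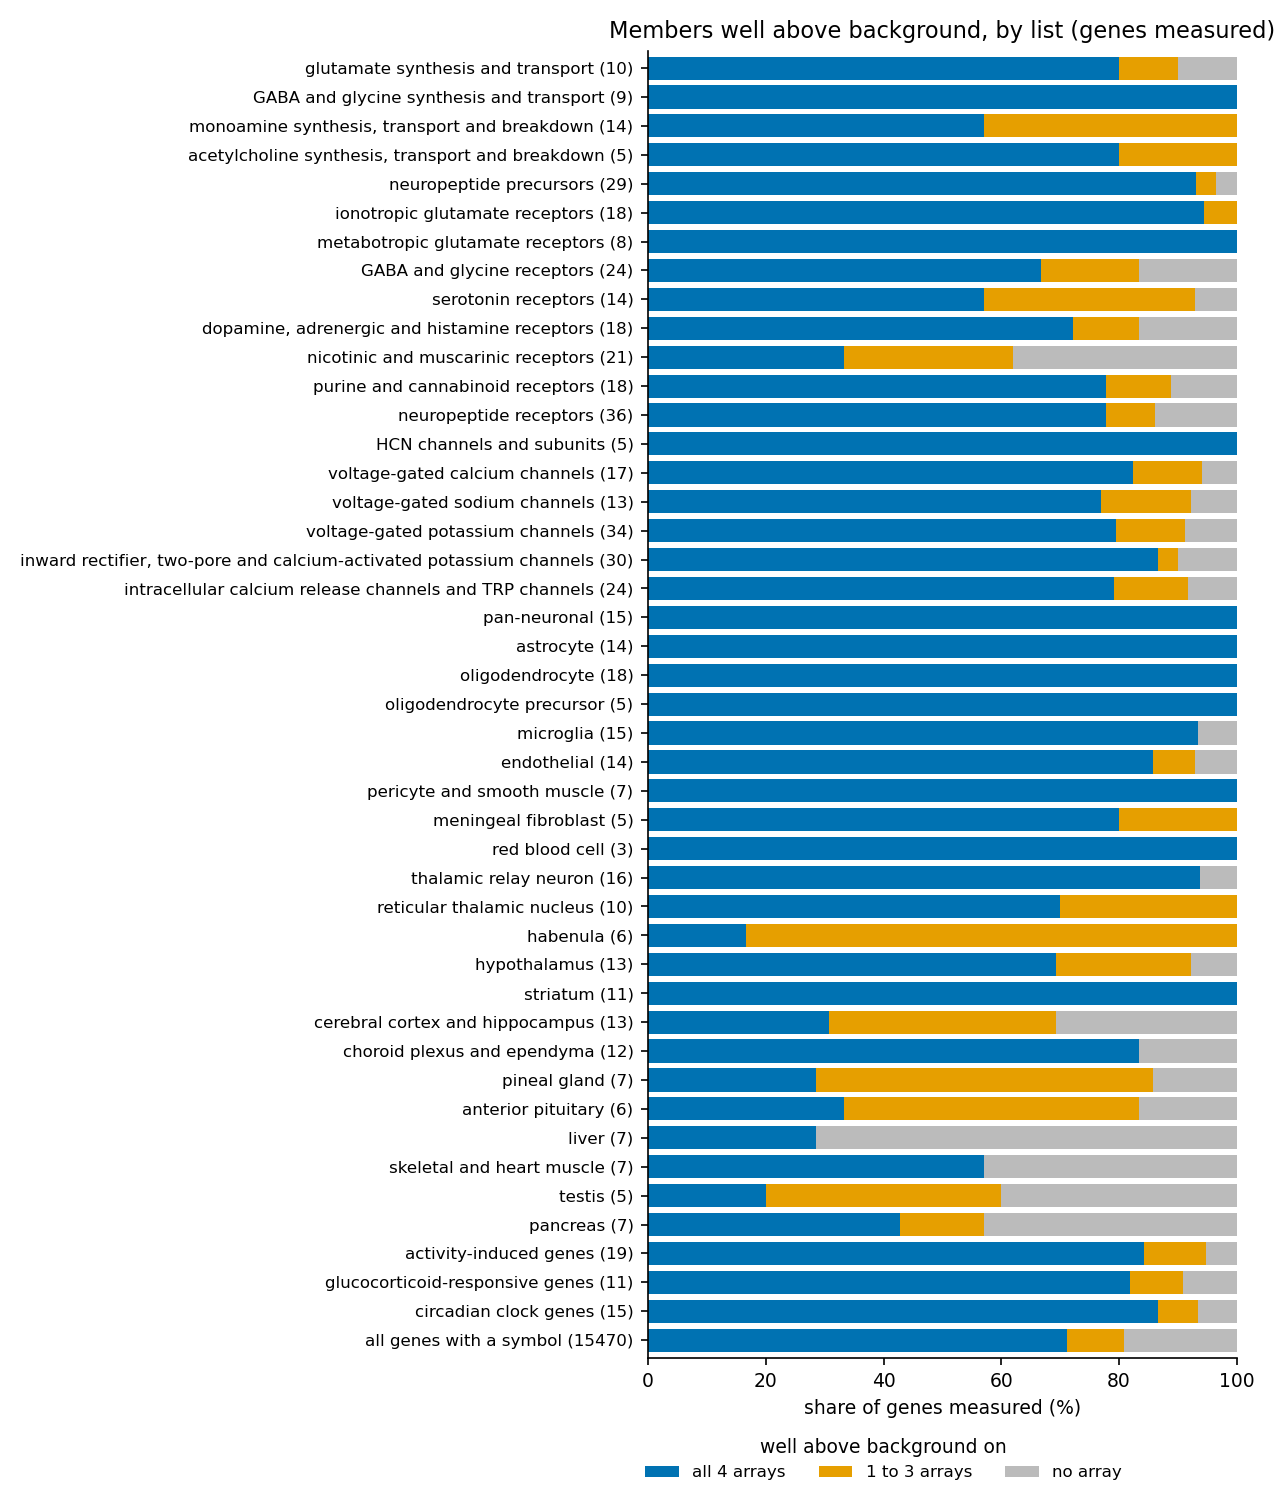
Share of the measured genes of each list (x axis, percent) that were well above background on all 4 control arrays, on 1 to 3 or on none, with the number measured in brackets after each list (y axis). The bottom bar gives all 15470 genes with a symbol (71.1% on all 4, 19.2% on none). Pan-neuronal and macroglial lists are at 100% on all 4. Habenula, pineal, pituitary, liver, testis, cortex and hippocampus, and nicotinic and muscarinic lists lie at 16.7% to 33.3%. Of these, the habenula list has 0.0% on none and the liver list 71.4%.

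The labelled tissue was checked against its markers. All 15 pan-neuronal, 14 astrocyte, 18 oligodendrocyte and 5 oligodendrocyte precursor genes were well above background on all 4 arrays. So were 14 of 15 microglial and 12 of 14 endothelial genes, against 71.1% of all genes with a symbol. Ptprc (microglia) and Pecam1 (endothelium) were the only 2 of those 81 genes seen on no array, so the probe for a marker can stay dark where the other markers of the same cells are clear. The neuronal genes Snap25, Eno2 and Uchl1 and the myelin gene Mbp were saturated on all 4 arrays. None of these lists held a gene with an SD above 1. Microglial genes were the steadiest, with a median SD of 0.15, for example C1qa at 2.60, 2.63, 2.88 and 2.82. The myelin genes were lowest on control 4, as for Mog, at 4.51, 4.72, 4.70 and 3.87, and Mag, at 3.44, 3.59, 3.61 and 2.85.

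Of 16 measured relay neuron markers, 15 were well above background on all 4 arrays, against 71.1% of all genes with a symbol. All 11 striatum genes were so as well, so such a count does not mark the tissue as thalamus. The median level of the relay list was -0.79. Of its 16 measured genes, 6 had a mean level above 0, against 35.0% of all genes with a symbol. Calb2, the calcium buffer calretinin of midline nuclei, was saturated on all 4, and Prkcd, a kinase of relay neurons, read 4.89, 3.77, 4.45 and 5.14, saturated on control 4. The developmental regulator Lef1 read 0.08, -0.73, -2.11 and 0.42 and Lhx9 -0.65, -1.05, -2.48 and -0.81, both lowest on control 3. Ramp3, a receptor partner, read 2.18, 1.17, 0.53 and 3.03, and Gbx2, a regulator of medial thalamic neurons, -1.41, -3.02, -2.52 and -1.07. These 2 were higher on slide 1. Amotl1 was well above background on no array, and Tcf7l2 and Synpo2 were not analysed here.

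Of all the lists, the habenula markers had the largest median SD, 2.34, against 0.21 over all genes with a symbol. All 6 measured habenula genes had an SD above 1, against 6.26% of all genes with a symbol, and only Gng8 was well above background on all 4. Gpr151, an orphan receptor of habenular neurons (probe at chr18:35816348-35816407, rn3), read 1.08, 1.37, -6.25 and -2.36 on controls 1 to 4. Pou4f1, a transcription factor of the medial habenula, read -3.32, -2.41, -7.50 and -6.03. Gng8, a G-protein subunit, read 3.97, 4.68, 2.28 and 1.90. The median level of the list was -0.40, 0.05, -6.33 and -3.08, so controls 1 and 2, which were on different slides, lay above controls 3 and 4. Chrna3 and Chrnb4, given above, are members of this list. Slc18a3, Slc5a7, Tac1 and Htr5b, given above and not on it, had the same 2 arrays on top. The part of habenular tissue in those values was not tested.

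Hypothalamic peptides marked another array. Oxt, the oxytocin gene (probe at chr3:118100336-118100479, rn3), read -4.32, -4.80, 0.74 and 5.11, the largest SD, 4.68, of all genes well above background on all 4 arrays and never saturated. Its neighbour Avp, the vasopressin gene, with 0 coding genes between them, read -1.33, -0.77, -0.50 and 5.12, and its other probe read -4.01, -3.07, -3.37 and 3.94. Pmch, the precursor of melanin-concentrating hormone, read -0.31, -0.53, -0.42 and 5.07. Avp and Pmch were saturated on control 4. Trh read -5.19, -5.82, -0.67 and 0.90, and Crh -3.54, -3.84, -3.53 and -0.55. Control 4 was the highest array for all 5. Other hypothalamic genes did not follow, with Pomc at 0.72 ± 0.31, Hcrt at -2.0 ± 0.68 and Agrp highest on control 3 at -2.56. Sim1 was well above background on no array. The list's median was -3.54, -3.84, -1.64 and -0.55, and 7 of 13 genes had an SD above 1, against the same 6.26%.

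Control 3 was the highest array for 2 developmental regulators, Isl1 of the reticular nucleus list and Fezf2 of the cerebral cortex and hippocampus list. Isl1 read -6.17, -7.47, -1.03 and -2.40, and Fezf2 -7.37, -7.34, -1.65 and -5.12. Each was well above background on control 3. Of the 11 striatum genes, 2 had an SD above 1, against 6.26% of all genes with a symbol. The median level of that list was -1.47, -1.21, 0.61 and -1.43, also highest on control 3. Some members varied little, among them Drd2, given above, and Adora2a, which marks striatal output neurons, at -2.02 ± 0.07. Adora2a was also highest on control 3, at -1.95 against -1.97 on control 2. For cerebral cortex and hippocampus the median of 13 genes was -2.50, -3.30, -5.38 and -4.01, lowest on control 3. An SD above 1 was found for 6 of the 13, against the same 6.26%. Neurod1 read 0.05, 0.38, -5.73 and -2.16 and Neurod2 -0.27, -0.99, -7.27 and -2.90, lowest on control 3. Emx2, a regulator of cortical development, was instead highest there, at -0.45, -0.49, 0.90 and -1.86. Emx1 and Prox1 were well above background on no array. In the reticular nucleus list, 6 of 10 genes had an SD above 1, against 6.26% of all genes with a symbol. In that list Spp1, a secreted phosphoprotein, read 2.11, 1.75, 3.15 and -2.17.

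**Figure D3:**
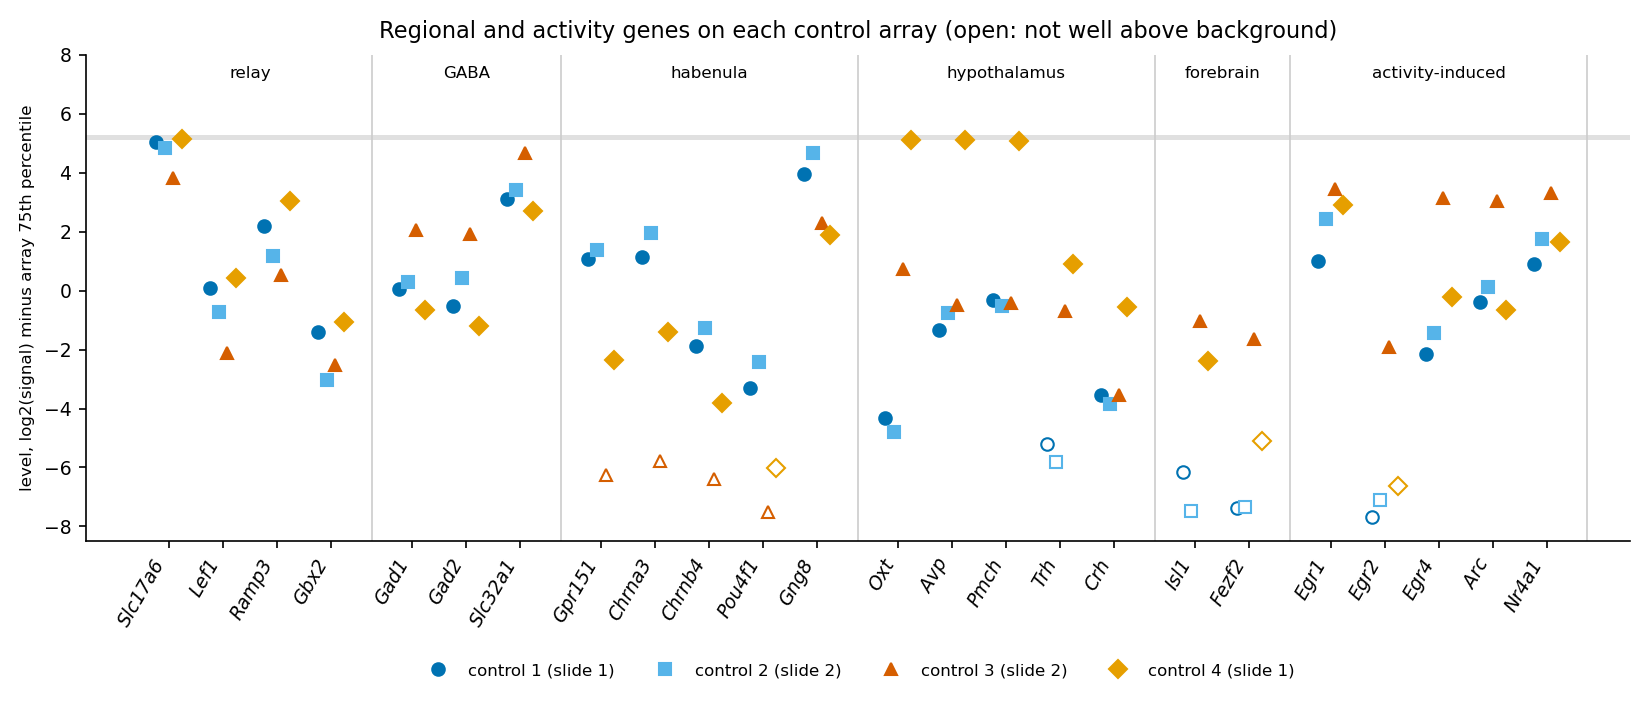
Level on each control array (y axis, log2 signal minus the 75th percentile) for genes of relay neurons, GABA neurons, habenula, hypothalamus and forebrain, and activity-induced genes (x axis). Filled symbols were well above background and open symbols were not, colour and shape mark the array, and the grey band is the scanner's saturation value. Controls 1 and 2 are on top for the habenula genes drawn and control 4 for the hypothalamic genes drawn. Control 3 is on top for the GABA and activity-induced genes drawn and for Isl1 and Fezf2, the only forebrain genes drawn. The genes drawn are a selection. List members that did not follow, among them Pomc, Hcrt, Agrp, Fos, Jun, Nr4a2, Neurod1 and Neurod2, are given in the text and not drawn.

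Ventricle, gland and blood genes differed between arrays as well. Of the choroid plexus list, 10 of 12 were well above background on all 4 arrays, against 71.1% of all genes with a symbol. An SD above 1 was found for 3, against 6.26% of all genes with a symbol. Ttr, the thyroid hormone carrier of that tissue, read 0.89, 0.61, -0.06 and -1.95, Sostdc1 0.38, 0.88, -2.26 and -1.65, and Otx2 2.67, 3.09, 2.27 and 1.12. Control 4 was the lowest for Ttr and Otx2. Blood genes were highest on control 1, with Hbb at 1.08, -0.33, -0.23 and -0.02 and Alas2, the haem synthesis enzyme of red cells, at 1.79, 0.15, 0.23 and 0.50. Dcn, of meningeal fibroblasts, was highest there as well, at 0.65, -0.82, -1.17 and -1.16. Of the pineal genes, 5 of 7 had an SD above 1, against the same 6.26%. Pde6c (-3.22, -4.16, -6.78 and -6.41) and Sag (-3.82, -4.25, -7.31 and -7.00) were well above background on controls 1 and 2 only. Of 6 anterior pituitary genes, 3 had an SD above 1, against the same 6.26%. The pineal and pituitary lists had median levels of -5.14 and -4.69. These lie little above the lowest signal well above background (-5.60 to -5.26), where an SD is uncertain. Tshb, at -3.54, -6.10, -5.52 and -3.70, Gh1, at -3.74, -5.30, -5.82 and -3.79, and Cga, at -2.92, -4.54, -4.53 and -2.75, were higher on both arrays of slide 1. Lhb did not follow, at -1.02, -1.28, -1.01 and -1.78, lowest on control 4.

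Genes of distant organs served as a background. Of 26 such genes for liver, muscle, testis and pancreas, 10 were well above background on all 4 arrays and 13 on none. Over all genes with a symbol these shares were 71.1% and 19.2%. Fga, Fgb, Cyp2e1, Apoh and Gcg, for example, were among the 13. Some were clear on every array, namely Myh6 (0.14 ± 0.56), Nppa (0.61, 1.03, -1.97 and -1.22), Alb (-0.89 ± 1.15), Ins1 (-1.43 ± 0.32) and Mb (-1.62 ± 0.15). A flag of well above background therefore also falls on genes that are known mainly from other organs.

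Genes induced by neuronal activity encode transcription factors and synaptic proteins made within minutes of firing. Of 19 members, 16 were clear on all 4 arrays (84.2%, against 71.1% of all genes with a symbol). An SD above 1 was found for 6, against 6.26% of all genes with a symbol. In general, activity acts on promoters of such genes through the cyclic AMP response element and the serum response element, which was not tested here. The promoters of 3 of the members that were highest on control 3 are shown as examples. They are the 250 bases before the start of each gene, from RefSeq (build GRCr8), 5′ to 3′ on the strand of the gene and in lower case. That of Egr2 is chr20:21054442-21054691 (minus strand), that of Egr4 chr4:119607818-119608067 (minus strand), and that of Nr4a1 chr7:134259888-134260137 (plus strand). Capitals mark the core TGACG of the cyclic AMP response element, searched on both strands, so that CGTCA is also marked, and the CArG box, the core of the serum response element, where it occurs.
Egr2: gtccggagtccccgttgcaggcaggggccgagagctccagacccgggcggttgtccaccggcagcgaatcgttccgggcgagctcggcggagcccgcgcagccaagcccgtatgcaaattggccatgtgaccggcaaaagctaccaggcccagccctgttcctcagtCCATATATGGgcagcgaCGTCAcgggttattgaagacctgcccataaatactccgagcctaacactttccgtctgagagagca
Egr4: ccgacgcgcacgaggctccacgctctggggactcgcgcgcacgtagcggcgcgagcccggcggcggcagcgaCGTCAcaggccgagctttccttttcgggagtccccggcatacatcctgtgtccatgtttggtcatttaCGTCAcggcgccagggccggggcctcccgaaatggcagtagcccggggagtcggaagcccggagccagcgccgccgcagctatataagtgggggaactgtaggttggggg
Nr4a1: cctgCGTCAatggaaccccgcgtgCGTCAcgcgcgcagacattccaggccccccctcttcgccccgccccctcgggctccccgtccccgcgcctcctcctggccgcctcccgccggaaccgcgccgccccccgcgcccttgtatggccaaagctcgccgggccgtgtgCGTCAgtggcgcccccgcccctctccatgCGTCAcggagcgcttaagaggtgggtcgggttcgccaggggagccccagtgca
Egr2 held 1 TGACG core and 1 CArG box, Egr4 2 such cores, and Nr4a1 4. The promoter of Egr1, also highest on control 3 and not printed, held 2 such cores and 2 CArG boxes. The RefSeq table held 19 promoters for 14 genes of the list, 6 of them for Bdnf. Of these 19 promoters, 10 held TGACG and 2 the CArG box, against 18.2% and 1.5% of 33469 promoters of the same length. Such a match is a description of the letters, not a binding site.

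Egr4, a zinc-finger transcription factor, read -2.14, -1.45, 3.16 and -0.22 on controls 1 to 4. Its relative Egr2 was well above background on control 3 only, at -7.69, -7.09, -1.90 and -6.63. Arc, which acts at synapses on receptor traffic, read -0.40, 0.14, 3.03 and -0.66. Control 3 was the highest array for all 3, by over 2 units. Nr4a1, a nuclear receptor, read 0.89, 1.74, 3.30 and 1.64, and Egr1 0.99, 2.45, 3.46 and 2.92, again with control 3 on top. On the occlusion arrays, Egr4 spanned -2.12 to -0.77 and Arc -0.88 to -0.39. Not every member followed. Jun was steady at 2.19 ± 0.06, Fos read -0.70, 0.68, 1.13 and 1.16, Nr4a2 was lowest on control 3 at -2.90, and Npas4 was well above background on no array. Control 3 was also the highest array for Isl1, Fezf2, Gad1, Gad2 and Slc32a1, and the lowest for the cerebral cortex and hippocampus median, all given above. Their part in these values was not tested.

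Of 11 measured genes that respond to glucocorticoids, none had an SD above 1, near the 6.26% of all genes with a symbol, and the median SD was 0.33 against 0.21 over those genes. Fkbp5, a chaperone of the glucocorticoid receptor, read 2.02, 2.13, 2.04 and 1.95, and the receptor gene Nr3c1 2.03 ± 0.21. Sgk1, a kinase, read 1.19, 0.80, 2.44 and 2.33. The 15 clock genes had a median SD of 0.21. The clock output gene Dbp read 3.27, 3.17, 3.45 and 3.40, and Per2, a repressor of the clock, 1.13, 1.13, 1.36 and 1.11. Clock itself was well above background on no array.

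Over the 19871 genes that were well above background on all 4 arrays, never saturated and had all 4 values, the median SD was 0.207, the 90th percentile was 0.575, and 374 genes (1.88%) had an SD above 1. With normexp background correction, which lifts dim signals, 170 did. The spread between spots of the same probe on 1 array was smaller, a median SD of 0.0853 for 204 probes with 10 spots each, whose median SD between arrays was 0.25, and the latter was the larger in 174 of the 204. The 30 genes with the largest SD, which chose themselves by that value, ran from 4.68 for Oxt to 1.86 for Gda, and the next gene had 1.84. Of these 30, 22 have a symbol.

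Several of the 30 are developmental regulators or are known from neighbouring tissue. Tfap2b read 0.35, 1.89, -3.35 and -3.33 and Irx2 1.51, 2.10, -2.53 and -0.30, both transcription factors that were higher on controls 1 and 2. Gnat2, the cone transducin gene, read 0.94, 0.50, -4.94 and -2.60, with the same 2 arrays on top. Calcr, the calcitonin receptor gene, read -2.13, -2.06, 1.82 and 0.28. Itpka, a dendritic kinase, read 0.92, -0.90, 3.96 and 0.03, and Gda, the guanine deaminase, 0.45, 0.46, 3.98 and -0.04. Control 3 was alone above 1 for Itpka and Gda. Ucn, a peptide related to corticotropin-releasing hormone, was high on control 1 only, at 0.45, -2.72, -4.07 and -3.07.

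A few departures belonged to 1 array and to genes on none of the region lists. Rnf181, a ubiquitin ligase, read 3.28, 3.31, -0.47 and 3.42 on the control arrays and had an SD of 0.11 on the occlusion arrays. Rplp1l1, whose name is that of a gene like the ribosomal protein gene Rplp1, read -1.5, 3.16, 2.92 and 2.77. By the widest gap between sorted values, the array or arrays on the high side for the 374 genes with an SD above 1 were controls 1 and 4 for 93 genes (24.9%, against 9.71% of all 19871), control 3 alone for 84 (22.5% against 13.5%), and controls 1 and 2 for 56 (15% against 4.41%). It was all but control 3 for another 56, near its share of 15.5% among all 19871. Without control 3, 14 of the 30 were still among the 30 with the largest SD, whereas without control 1, 2 or 4 it was 22, 25 and 24.

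**Figure D4:**
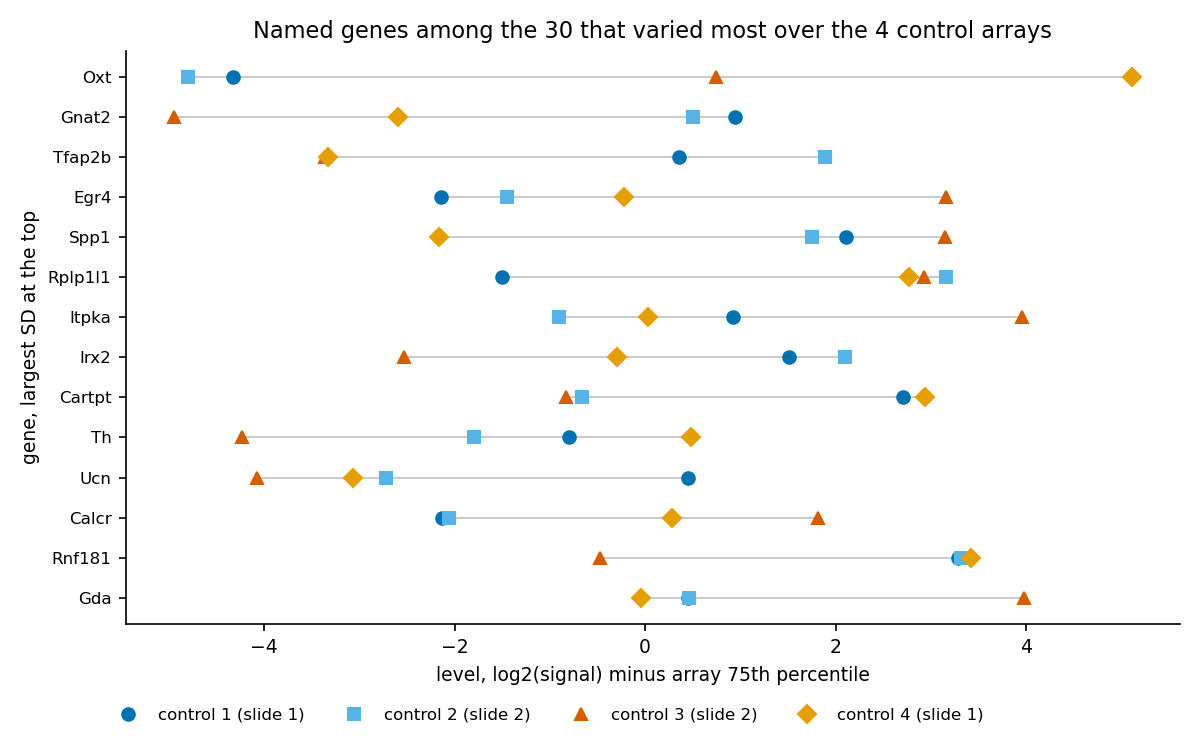
Levels on the 4 control arrays (x axis, log2 signal minus the 75th percentile) of the 14 genes named in the text among the 30 with the largest SD, ordered from Oxt (SD 4.68) at the top to Gda (1.86), with the grey line as the range. The array that stands apart differs from gene to gene.

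The 2 slides held 2 control arrays each, so a slide difference within the controls was tested with limma. It called 0 of 24205 probes (0.0%) at an adjusted p under 0.05, with a smallest adjusted p of 0.0526 and 3306 probes at an unadjusted p under 0.05. With all 8 arrays and the group as a covariate, the same test called 1124 of 23561 probes (4.77%), 931 higher on slide 1 (3.95%) and 193 lower (0.819%). The 93 genes with an SD above 1 and controls 1 and 4 on the high side had a median level of -3.42 and a median probe GC content of 50%. The other 281 genes had -1.68 and 43.3%, and all 19871 genes -0.74 and 43.3%. For the dim genes Dbh, Slc6a4, Oprm1, Tshb, Gh1 and Cga given above, which were higher on slide 1, slide and animal cannot be told apart within the control arrays.

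The spread over the 4 occlusion arrays, which took no part in the choice, was set beside these genes as a description. Of 19386 genes with all 4 occlusion values, 359 (1.85%) had an SD above 1 there. Of the 365 with an SD above 1 on the control arrays, 122 did, which is 33.4% of these and 34.0% of the 359. Among the 30 most variable genes, 21 had an SD above 1 on the occlusion arrays. Oxt had 4.84 there, Gnat2 2.02 and Cartpt 3.24. In contrast, the values for Egr4, Itpka, Ucn and Rnf181 were 0.56, 0.33, 0.36 and 0.11. The first 3 of these genes thus varied within both groups, and the last 4 within the controls only, by an SD above 1.

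**Figure D5:**
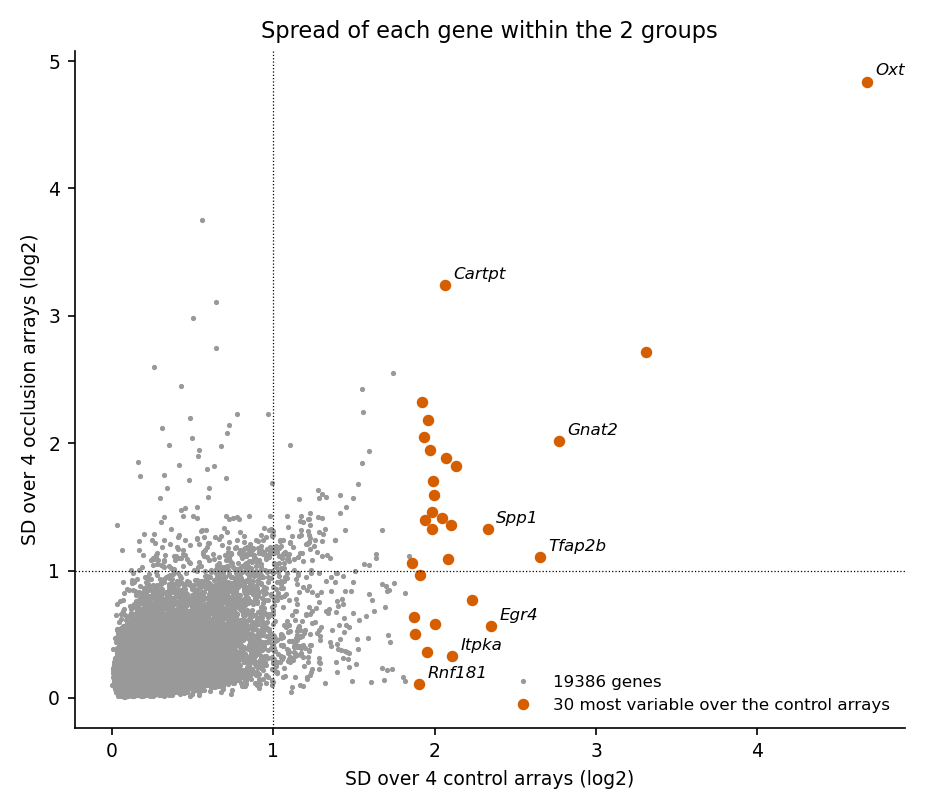
SD of each of 19386 genes over the 4 control arrays (x axis, log2) against its SD over the 4 occlusion arrays (y axis, log2), with the 30 genes most variable over the control arrays in orange and dotted lines at an SD of 1. Oxt and Cartpt spread widely in both groups, while Egr4, Itpka and Rnf181 lie low on the y axis.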

How the data were processed

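Per the file headers, the authors scanned each array in 1 channel (Cy3) with Agilent Feature Extraction 9.5.1.1, and the deposited processed intensity is linear, background-subtracted and not normalised between arrays. The design text speaks of a reference design, but the files hold 1 colour. The deposited value table of the series holds the same intensity, to within 0.497% on every array, and was used as an alternative. Control spots and outlier-flagged spots were left out, log2 of the intensity minus its 75th percentile was taken on each array, and spots were averaged per probe. Flags of background and saturation were used as deposited per the file headers, and a probe counts as flagged where at least 0.5 of its spots are. Probes were named through a RefSeq table (names only): 20018 of 41012 have a symbol, 10735 of them by accession. Probe positions are those of the files (rn3), and which exon a probe matches is not given in them.

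Genes named are the members of 44 gene lists (576 of 596 matched), the 30 with the highest mean and the 30 with the largest SD among genes well above background on all 4 control arrays and saturated on none. Some members are not reported here. Members and lists were chosen with earlier results of these data known. No comparison between the groups was made. The slide test used limma 3.58.1 in R 4.3.3 (lmFit and eBayes, two-sided, Benjamini-Hochberg, threshold 0.05) on probes well above background on all 4 control arrays, and was tested on simulated data. Alternatives were other scalings and background corrections, outliers kept, the deposited table, all probes of a gene, another detection flag, no filter, and each control array left out.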

Additional observations from a re-analysis of the deposited data

Results flagged for a closer look

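On a single array, 18 of the 169 genes given above with 4 values and a clear signal on at least 1 array stood so far from the other 3 that a gap of this size falls on about 1 in 20 groups of 4 by chance. Over the 19871 genes with a clear signal on all 4 control arrays, no saturation and 4 values, a narrower filter, it was 1133 genes (5.70%), of which control 3 stood apart in 553. The 169 genes were named with earlier results of these data known, and some, among them Gda, Rnf181 and Rplp1l1, for their large SD over these same arrays. The 18 of 169 can therefore not be judged against the 1 in 20, nor can its split by array. Among the 18, control 3 stood apart in 12, control 4 in 5 and control 1 in 1. These counts describe the named genes only, and no explanation was tested.

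Control 3 was the highest array for Trpc4 at 2.93, against -0.17 for the next array, for Gda at 3.98 against 0.46, for Sstr3 at 1.48 against 0.86, for Agrp at -2.56 against -3.55, for Per2 at 1.36 against 1.13, and for P2ry12 at 1.44 against 1.19. The last 2 gaps are small in size and stand out because the other 3 arrays lay close together. It was the lowest array for Rnf181 at -0.47, against 3.28 for the next, for Kcnj12 at 2.0 against 3.20, for Kcnd2 at 1.48 against 2.36, for Gls2 at 2.24 against 3.07, for Gabbr1 at 3.47 against 3.98, and for Gabbr2 at 4.26 against 5.08, where the other 3 arrays were saturated.

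Control 4 was the highest array for the peptide genes Avp at 5.12, against -0.50 for the next, Pmch at 5.07 against -0.31 and Crh at -0.55 against -3.53, and for Grik3 at -4.88, the only array on which that probe gave a clear signal. It was the lowest for P2rx6 at 0.60, against 1.42. Control 1 was the lowest for Rplp1l1 at -1.5, against 2.77.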

How the results depend on the processing

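No paired analysis was possible because no comparison between the groups was made. Of 71 counts under alternative settings, 62 stayed within 1.5 times the value given above. With the weaker detection flag of the scanner software, 4962 genes were seen on no array, and with genes that have a symbol alone 10996 were seen on all 4 and 2972 on none. Counting saturation on at least 1 array gave 532 genes. With normexp 170 genes had an SD above 1, and without the filter on dim or saturated probes 2253 did, while 3 of the 30 most variable genes stayed in the top 30. Leaving out 1 control array kept 14 to 25 of those 30, the lowest without control 3. The slide test called 1124 probes with all 8 arrays, and 0 under every other setting run. Of 628 levels of single genes, compared after removing the shift of the median of all genes, 608 or more moved by less than their SD under the other scalings, with outliers kept, with the deposited table and with each array left out. With normexp it was 259, with a shift of the all-gene median of 0.59, and with the mean over all probes 451. The settings with 608 or more could show little. Leaving out 1 of 4 values cannot by itself move a mean by its SD. A scaling that subtracts 1 constant per array is taken out with the shift. Depth limits dim genes, which have only a flag, and saturated genes, which have only a lower bound.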
